A study of Rattus norvegicus with 6 samples.

Results

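The nuclear-encoded subunits of the respiratory chain and of ATP synthase were followed in pancreatic duct glands of HIP and wild-type (WT) rats. They were taken by symbol from the 15675 gene rows used, as every symbol that begins with Ndufa, Ndufb, Ndufc, Ndufs, Ndufv, Uqcr, Cox4 to Cox8 or Atp5, together with Sdha, Sdhb, Sdhc and Sdhd. This rule gave 84 genes, of which 40 fall under complex I, 4 under complex II, 7 under complex III, 16 under complex IV and 17 under complex V. The names also catch genes that encode no subunit, namely the complex I assembly factors Ndufaf1, Ndufaf3, Ndufaf4, Ndufaf5 and Ndufaf7, the supercomplex factor Cox7a2l, the pseudogene Cox6c-ps1, Atp5s and Atp5sl (now Dmac2l and Dmac2) and Cox4nb (now Emc8). Ndufa4 carries a complex I name, but its protein is a subunit of complex IV. The rule reads symbols alone and no measured value. Some symbols that the rule would take have no row among the values used here, such as Cox6b1, Cox7a1, Ndufa3, Ndufa13, Ndufb1, Ndufc1 and Uqcr10. Genes of the mitochondrial genome have no row either, so the mitochondrially encoded subunits were not analysed here.

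Pancreatic duct glands are small blind pouches that open into the main ducts of the pancreas and make mucus. Glands were recognised by their shape, cut out by laser capture microdissection, and their RNA was sequenced. There were 3 libraries from HIP rats (HIP30, HIP2 and HIP3) and 3 from WT rats (WT26, WT1 and WT4), all of the Sprague-Dawley strain. HIP rats express human islet amyloid polypeptide from a transgene, model type 2 diabetes and were studied at a pre-diabetic stage. The transgene is driven by an insulin promoter and so is meant for beta cells. Its expression in the captured glands was not looked at here. For age, sex and treatment the sources used here give nothing. Whether the 3 libraries of a group stand for 3 animals is not stated in the labels, and the p-values may therefore reflect technical spread alone.

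The libraries held 15141136 to 16709667 reads in HIP and 15821742 to 17574682 reads in WT. Levels are in CPM, a share of all reads multiplied to a fixed total and scaled with TMM factors, and each set of values keeps the order HIP30, HIP2, HIP3 and then WT26, WT1, WT4. The duct keratin Krt19 stood at 1514 to 2307 CPM in HIP and 1815 to 7326 CPM in WT, and the epithelial adhesion molecule Epcam at 1435 to 1814 CPM in HIP and 1463 to 2672 CPM in WT. Transcripts of other cells were unevenly spread over the libraries. The insulin gene Ins1 was at 0 in HIP30 and in WT26 and reached 3717 CPM in HIP3 and 7761 CPM in WT4. All 7 fibroblast markers were lower in HIP, summing to 406 to 1725 CPM in HIP and 1393 to 2126 CPM in WT, and so were all 7 smooth muscle and pericyte markers, summing to 103 to 239 CPM in HIP and 214 to 339 CPM in WT. All 6 myeloid markers had a positive log2 difference, HIP minus WT. They summed to 365 to 2218 CPM in HIP and 107 to 541 CPM in WT, with most of that sum from Mpeg1 in HIP30 and HIP2. For Cd68, Csf1r, Lyz2 and Ptprc, however, WT4 was the highest of the 6 libraries. Between the means of HIP2 with HIP3 and of WT1 with WT4, 2 of the 6 markers were lower in HIP. Of all tested genes, 48.9% were lower in HIP. In bulk RNA of this kind, fewer cells of a type and less RNA per cell cannot be told apart, and the part of these markers in the results on the respiratory chain was not tested.

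The respiratory chain sits in the inner mitochondrial membrane. Complex I takes electrons from NADH and complex II takes them from succinate, both pass them to ubiquinone, complex III hands them on to cytochrome c, and complex IV gives them to oxygen. Complexes I, III and IV pump protons, and complex V, the ATP synthase, uses the return of those protons to make ATP. Most subunits are encoded in the nucleus and a small core in mitochondrial DNA, so that every complex but complex II is assembled from products of both genomes. In mammalian cells, the nuclear genes are known to be served by the transcription factors NRF1, GABP (also called NRF2) and YY1, together with coactivators such as PGC-1alpha.

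Promoter sequences of the members are shown because elements for these factors are known from genes of this kind. RefSeq promoters of the GRCr8 build, running from 250 bases before to 50 bases after the gene start, were found for 73 of the 84 members, after 66 symbols matched directly and 18 as synonyms. 1 promoter of each complex is printed 5′ to 3′ on the strand of the gene, and the capitals mark a match, on either strand, to the NRF1 letters GCGCATGCG, the GABP letters CCGGAAG or the YY1 letters AAGATGGCG.
Ndufa6, complex I, chr7:115750268-115750567, minus strand: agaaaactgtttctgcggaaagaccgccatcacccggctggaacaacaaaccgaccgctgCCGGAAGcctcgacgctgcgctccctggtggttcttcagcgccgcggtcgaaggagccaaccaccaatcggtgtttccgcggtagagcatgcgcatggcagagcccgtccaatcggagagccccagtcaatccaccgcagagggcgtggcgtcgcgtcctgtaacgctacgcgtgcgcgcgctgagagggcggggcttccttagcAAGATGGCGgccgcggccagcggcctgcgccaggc
Sdhd, complex II, chr8:59850592-59850891, minus strand: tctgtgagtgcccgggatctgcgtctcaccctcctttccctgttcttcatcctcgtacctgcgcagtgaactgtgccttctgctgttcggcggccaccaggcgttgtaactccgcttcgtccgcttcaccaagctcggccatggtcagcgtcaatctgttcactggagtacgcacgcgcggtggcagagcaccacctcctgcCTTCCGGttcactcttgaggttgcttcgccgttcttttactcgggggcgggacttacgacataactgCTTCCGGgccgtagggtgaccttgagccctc
Uqcrc1, complex III, chr8:118467973-118468272, plus strand: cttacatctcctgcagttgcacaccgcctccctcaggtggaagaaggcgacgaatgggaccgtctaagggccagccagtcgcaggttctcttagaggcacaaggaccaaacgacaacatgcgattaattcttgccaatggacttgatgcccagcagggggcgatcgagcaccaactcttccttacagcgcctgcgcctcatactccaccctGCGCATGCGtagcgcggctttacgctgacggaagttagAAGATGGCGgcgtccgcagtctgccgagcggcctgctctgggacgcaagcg
Cox4i1, complex IV, chr19:65630133-65630432, plus strand: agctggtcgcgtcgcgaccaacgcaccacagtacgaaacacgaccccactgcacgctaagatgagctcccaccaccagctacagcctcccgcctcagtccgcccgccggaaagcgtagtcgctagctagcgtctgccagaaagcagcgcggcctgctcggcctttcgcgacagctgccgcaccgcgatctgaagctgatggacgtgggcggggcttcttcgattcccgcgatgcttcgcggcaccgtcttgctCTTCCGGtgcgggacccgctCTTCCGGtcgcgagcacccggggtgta
Atp5i, complex V, chr14:1464610-1464909, plus strand: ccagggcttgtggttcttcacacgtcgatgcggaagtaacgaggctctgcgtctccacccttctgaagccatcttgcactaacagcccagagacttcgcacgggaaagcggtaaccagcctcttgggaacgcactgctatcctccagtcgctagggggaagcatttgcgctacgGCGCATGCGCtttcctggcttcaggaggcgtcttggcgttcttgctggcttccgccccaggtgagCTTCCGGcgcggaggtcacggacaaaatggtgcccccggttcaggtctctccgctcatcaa
The Ndufa6 promoter holds a GABP match and a YY1 match, Sdhd and Cox4i1 hold 2 GABP matches each on the other strand, and Uqcrc1 holds NRF1 and YY1 matches. In Atp5i, NRF1 matches on both strands overlap in 1 run, and a GABP match follows. All 5 printed promoters thus hold a match, but only 33 of the 73 promoters found hold any, so the printed ones are not typical of the members. Cox4i1 and its neighbour Cox4nb start 148 bases apart on chromosome 19, head to head, so that both starts lie close to the same stretch. From these starts the genes run away from each other, so on this build they do not overlap there. Strandedness of the counts is not given, and the build of the counts was not looked at.

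Over the 73 promoters, 8 (11%) held the NRF1 letters, against 1.93% of 21851 protein-coding promoters of the same length. The GABP letters stood in 21 (28.8%) against 10.7% of all promoters, the YY1 letters in 10 (13.7%) against 2.07%, and at least 1 of the 3 in 33 (45.2%) against 13.8%. The windows of Cox4i1 and Cox4nb overlap, and the same 2 GABP matches, read on opposite strands, count for both genes. The median GC content was 57% in the members and 55% in all promoters. None of the 3 motifs was found in the promoters of Cox5a, Atp5b and Atp5s. A match describes letters in a window, not a site in use or a cause, and its absence says nothing about the factor.

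Of the 84 genes, 80 had enough reads to be tested. Most of them were slightly lower in HIP glands: 65 of 80 had a negative log2 difference, HIP minus WT, against 48.9% of all 12102 genes tested. The median difference of the 80 genes was -0.20, with quartiles of -0.30 and -0.075 and a range of -0.64 to 1.07, and the median of all tested genes was 0.0097. With the genes that encode no subunit set aside and Ndufa4 kept, 62 of 71 subunits were lower, with a median of -0.23. The shift was small beside the spread between libraries, since the median of the members, taken in each library, had a pooled SD of 0.31 within groups. The standard error of a single gene was 0.29 at the median.

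No single member passed the test. With limma and Benjamini-Hochberg adjustment, 0 of 12102 genes (0%) and 0 of 80 members had an adjusted p under 0.05, and the lowest adjusted p of a member was 0.691. At an unadjusted p under 0.05, 792 genes stood out in all, and 914 by limma-voom, which also called 0 genes after adjustment. Of the members, 0 were lower at that level, against 3.26% of all genes, and 1 was higher, Atp5s, against 3.29% of all genes. The HIP libraries all lay below the WT libraries for 2 members, Cox5a and Ndufb9, against 4.27% of all genes, and all above them for 0 members, against 5.27%. These shares do not set the members apart from other genes, and what they had in common was a direction shared by many small differences.

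**Figure D1:**
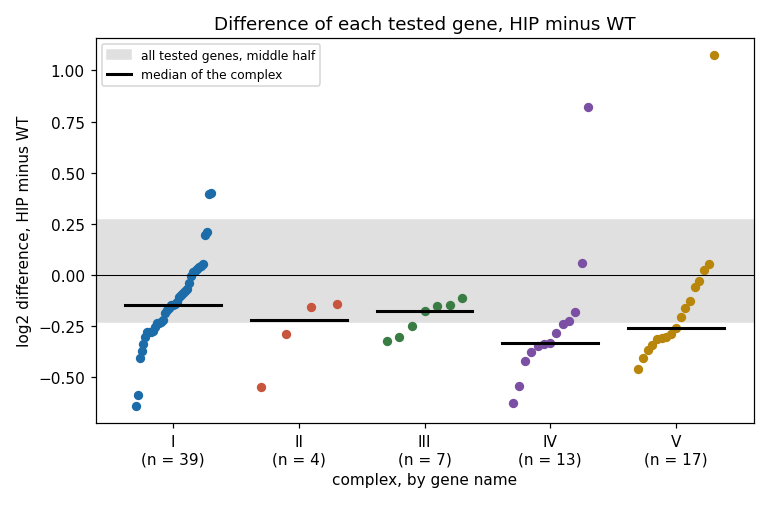
Log2 difference, HIP minus WT, of each of the 80 tested genes (points), grouped by complex on the horizontal axis, with the median of each complex as a black line and the quartile range of all 12102 tested genes as a grey band. Most points lie below 0, and the medians of the complexes run from -0.15 in complex I to -0.34 in complex IV.

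The plot of differences by complex shows that every complex had a negative median, with points spread across and below the quartile range of all genes and few far above it. Complex IV had the lowest median, -0.34, with 11 of 13 genes lower in HIP. Complex V followed at -0.26 (14 of 17 lower), then complex II at -0.22 (4 of 4), complex III at -0.17 (7 of 7) and complex I at -0.15 (29 of 39). The order of these medians was not tested, and neighbouring values differ by less than the spread between libraries.

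Complex I, the NADH dehydrogenase, had 7 tested core subunits, which hold the flavin, the iron-sulfur clusters and the ubiquinone site, and 5 of them were lower in HIP, with a median of -0.17. Ndufv1, the flavin-bearing subunit that binds NADH, had 91.9, 65.4 and 59.7 CPM in HIP and 111, 88.6 and 79.4 CPM in WT. Its log2 difference was -0.37 ± 0.23 (SE), with an unadjusted p of 0.141 by limma. The groups overlapped, as HIP30 lay above both WT1 and WT4.

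Ndufv2, the partner of Ndufv1 in the NADH module, had the opposite sign, with 65.8, 50.2 and 50.4 CPM in HIP and 63.7, 46.1 and 36.7 CPM in WT, and a difference of 0.21 ± 0.25 (SE). HIP30 and WT26 were close to each other, and the remaining HIP libraries lay above the remaining WT libraries.

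Further core subunits of complex I differed less. Ndufs1, a large subunit with iron-sulfur clusters, was even across HIP at 132, 134 and 132 CPM and uneven across WT at 144, 202 and 115 CPM. Ndufs3, which joins the arm in the matrix to the ubiquinone module, had 89.2, 56.0 and 65.9 CPM in HIP and 133, 62.1 and 59.1 CPM in WT, and Ndufs8, another carrier of clusters, had 49.6, 35.2 and 35.0 CPM in HIP and 55.7, 36.9 and 39.5 CPM in WT. Ndufs7, which carries the last cluster before ubiquinone, had 67.4, 45.3 and 56.9 CPM in HIP and 67.8, 46.5 and 50.6 CPM in WT. Their log2 differences were -0.17, -0.19, -0.13 and 0.041 in that order, each smaller than its standard error.

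Among the 26 accessory subunits of complex I, which surround the core and are needed for its assembly and stability, 22 were lower in HIP, with a median of -0.16 and a range of -0.59 to 0.054. Ndufb9, an accessory subunit of the membrane arm, had 71.7, 53.8 and 66.9 CPM in HIP and 150.3, 77.0 and 75.8 CPM in WT. All 3 HIP libraries lay below all 3 WT libraries, but the gap was narrow between HIP30 and WT4 and WT26 stood far above the rest. The mean was 64.1 ± 9.28 CPM in HIP and 101 ± 42.7 CPM in WT (SD, n = 3 each), and the difference was -0.59 ± 0.29 (SE) with an adjusted p of 0.691 by limma. Ndufa6, whose promoter is printed above, had 37.9, 18.0 and 24.9 CPM in HIP and 60.3, 19.2 and 20.0 CPM in WT. WT26 and HIP30 were far above the other 4 libraries, which were close to each other.

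The 5 complex I assembly factors among the members had no common direction, with 2 lower, 3 higher and a median of 0.018, which was -0.0022 with median-ratio scaling and ran from -0.083 to 0.091 without 1 library. Ndufaf7, a methyltransferase that acts during assembly, had 31.9, 26.4 and 18.9 CPM in HIP and 24.2, 18.0 and 16.1 CPM in WT, a difference of 0.39 ± 0.30 (SE). The groups overlapped through WT26, which lay above HIP3. Ndufaf1, which joins an early assembly intermediate, had the lowest difference of all 80 genes, -0.64 ± 0.46 (SE). It stood at 10.0, 12.0 and 7.48 CPM in HIP and 9.18, 28.4 and 13.1 CPM in WT, where WT1 was the highest of the 6 libraries and HIP3 the lowest.

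Complex II, the succinate dehydrogenase, is encoded by nuclear genes alone, and all 4 of its subunits were lower in HIP. Sdhd, a membrane anchor, had 99.2, 72.1 and 94.4 CPM in HIP and 214, 112 and 88.2 CPM in WT. WT26 lay far above the rest, while WT4 lay below HIP30 and HIP3. The difference was -0.55 ± 0.33 (SE), with an unadjusted p of 0.13 and an adjusted p of 0.704 by limma.

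The other subunits of complex II differed less. Sdhb, the iron-sulfur subunit, had 62.6, 49.9 and 51.5 CPM in HIP and 77.9, 60.6 and 62.3 CPM in WT, a difference of -0.29 ± 0.20 (SE). Sdha, the flavoprotein that oxidises succinate, had 188, 182 and 202 CPM in HIP and 252, 218 and 174 CPM in WT, and Sdhc, the other anchor, had 160.1, 151 and 211 CPM in HIP and 227, 181 and 168 CPM in WT. For Sdhb HIP30 lay just above WT1 and WT4, and for Sdha and Sdhc the ranges overlapped widely.

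In complex III, the cytochrome bc1 complex, all 7 genes caught by name were lower in HIP, in a narrow range from -0.32 to -0.11. The core proteins Uqcrc1 and Uqcrc2, which hold the complex together on its matrix side, showed it in this way. Uqcrc1 had 101, 83.2 and 88.4 CPM in HIP and 140.1, 116 and 85.9 CPM in WT, a difference of -0.30 ± 0.22 (SE). Uqcrc2 had 189.6, 194 and 216 CPM in HIP and 259, 274 and 187 CPM in WT, a difference of -0.25 ± 0.20 (SE). In both genes WT26 and WT1 lay above every HIP library and WT4 fell within or below the HIP range.

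Uqcrfs1, the Rieske iron-sulfur protein that passes electrons towards cytochrome c, had 86.6, 65.2 and 69.5 CPM in HIP and 123, 81.1 and 54.3 CPM in WT. Uqcrq, a small subunit that binds next to cytochrome b, had 65.7, 39.2 and 48.8 CPM in HIP and 105, 43.8 and 53.3 CPM in WT. In both genes WT26 was the highest of the 6 libraries, and their differences, -0.15 ± 0.30 and -0.32 ± 0.35 (SE), were smaller than their standard errors.

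In complex IV, the cytochrome c oxidase, Cox5a came closest to the threshold of any subunit. Cox5a, a matrix-side subunit, had 56.0, 49.8 and 55.8 CPM in HIP and 99.3, 85.1 and 56.9 CPM in WT. The HIP libraries were close together and all below WT, although WT4 was only just above HIP30 and HIP3. The mean was 53.9 ± 3.55 CPM in HIP and 80.5 ± 21.6 CPM in WT (SD, n = 3 each). The difference of -0.54 ± 0.24 (SE) had an unadjusted p of 0.0517 and an adjusted p of 0.691 by limma, which does not pass.

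Other ubiquitous subunits of complex IV had differences of similar size. Cox5b, which binds zinc, had 72.3, 54.3 and 74.4 CPM in HIP and 128, 75.2 and 73.3 CPM in WT, a difference of -0.42 ± 0.26 (SE). Cox7b had 64.3, 63.7 and 90.5 CPM in HIP and 123, 79.4 and 83.1 CPM in WT, a difference of -0.38 ± 0.24 (SE). WT26 was the highest library in both genes, and HIP3 lay above at least 1 of the other WT libraries. Cox4i1, the ubiquitous form of subunit 4, had 168, 122 and 156 CPM in HIP and 291, 151 and 132 CPM in WT. Apart from WT26, its 5 libraries were interleaved.

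Ndufa4, counted under complex I by its name, was higher in HIP, with 104, 65.8 and 69.7 CPM in HIP and 71.1, 49.3 and 58.9 CPM in WT. HIP30 was highest, and WT26 lay above HIP2 and HIP3. The difference was 0.40 ± 0.24 (SE), with an unadjusted p of 0.136 by limma. With Ndufa4 among them, 12 subunits of complex IV were tested, of which 10 were lower in HIP and 2, Ndufa4 and Cox4i2, were higher. Cox7a2l, which helps join complexes III and IV into supercomplexes, had 185, 125 and 139.9 CPM in HIP and 216, 115 and 115 CPM in WT, a difference of 0.057 ± 0.29 (SE).

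Several subunits of complex IV exist as a widespread form and a form known from muscle, lung or testis, and the second kind had few reads in the glands. Cox6a2 and Cox8b, the striated muscle forms, were not tested, with 2, 0 and 5 reads of Cox6a2 in HIP against 0 reads in each WT library, and 7, 5 and 2 reads of Cox8b in HIP against 7, 6 and 1 reads in WT. Ndufa4l2, a paralogue of Ndufa4 known to be induced by low oxygen, had 0, 2 and 0 reads in HIP and 2, 1 and 2 reads in WT. Cox6c-ps1 had 0 reads in each HIP library and 0, 0 and 3 reads in WT. With a limit of 3 reads for a count of 0, which covers counting error only, no difference could be seen for these 4 genes at this depth.

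Their widespread partners were well covered. Cox6a1 had 126, 121 and 176 CPM in HIP and 229, 163 and 145 CPM in WT, and Cox8a had 113, 113 and 194 CPM in HIP and 172, 167 and 173 CPM in WT. In both genes HIP30 and HIP2 lay below all WT libraries, and HIP3 did not. Cox7a2, the widespread form of subunit 7a, had 12.5, 6.29 and 7.17 CPM in HIP and 10.1, 8.91 and 10.1 CPM in WT, a difference of -0.22 ± 0.37 (SE). The testis form Cox6b2 had 1.16, 1.40 and 1.47 CPM in HIP and 2.56, 1.17 and 3.16 CPM in WT, and its ranges overlapped through WT1.

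Cox4i2, the lung form of subunit 4, which is known to respond to low oxygen, had 33, 34 and 25 reads in HIP and 4, 18 and 50 reads in WT, equal to 2.01, 2.08 and 1.53 CPM in HIP and 0.238, 1.11 and 3.04 CPM in WT. Its log2 difference of 0.82 ± 0.84 (SE) was 0.0055 without WT26, the lowest library, and WT4 was the highest of the 6. The log2 ratio of Cox4i2 over Cox4i1 was -6.31, -5.79 and -6.56 in HIP and -9.66, -6.94 and -5.38 in WT. It averaged -6.22 ± 0.39 in HIP and -7.33 ± 2.17 in WT (SD, n = 3 each). The difference of 1.11 had a p of 0.6 in a two-sided exact permutation test over 20 splits, the smallest p this design allows being 0.1. Of the 6 isoform pairs looked at, this was the only pair with both genes tested.

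**Figure D2:**
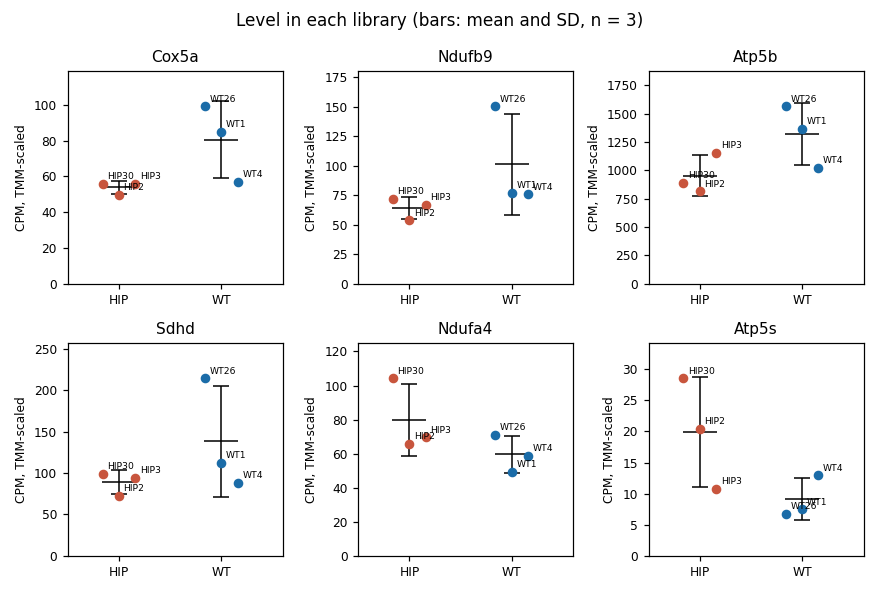
CPM in each library (points, named by library) for 6 of the genes, HIP left and WT right, with the mean and SD of each group (n = 3) as bars and the vertical axis starting at 0. Cox5a and Ndufb9 have all HIP points below the WT points, and in the other 4 genes the groups overlap.

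The plots of single genes show the 2 members without overlap, Atp5b and Sdhd with WT26 high, and the 2 that ran against the others, Ndufa4 and Atp5s. Complex V, the ATP synthase, has an F1 head in the matrix that makes ATP, and all 5 genes of the head were lower in HIP, with a median of -0.29. Atp5b, the catalytic beta subunit, had 891, 817 and 1155 CPM in HIP and 1567, 1369 and 1023 CPM in WT. HIP30 and HIP2 lay below every WT library, and HIP3 lay above WT4. The mean was 954 ± 178 CPM in HIP and 1319.6 ± 275 CPM in WT (SD, n = 3 each), and the difference was -0.46 ± 0.26 (SE) with an adjusted p of 0.692 by limma.

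Atp5a1, the alpha subunit that alternates with beta in the head, had 274, 286 and 314 CPM in HIP and 410.2, 401 and 255 CPM in WT, a difference of -0.26 ± 0.22 (SE). Atp5c1, the gamma subunit that forms the central shaft, had 134, 114 and 153 CPM in HIP and 237, 184 and 125 CPM in WT, a difference of -0.41 ± 0.26 (SE). In both genes WT26 and WT1 lay above every HIP library and WT4 lay below HIP30 and HIP3.

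The c ring, the rotor in the membrane, is encoded by 3 genes with the same mature protein, and reads of such close copies may have been split between them. Atp5g1 had 88.1, 35.4 and 47.7 CPM in HIP and 100.3, 35.8 and 37.1 CPM in WT, and Atp5g2 had 199, 125 and 139 CPM in HIP and 245, 131 and 139 CPM in WT. Atp5g3 had 158, 89.0 and 121 CPM in HIP and 244, 114 and 117 CPM in WT. In all 3 genes HIP30 and WT26 were above the other 4 libraries, and the group differences of 0.053, -0.13 and -0.31 were smaller than their standard errors. The 7 genes of the stalk and the membrane part were all lower in HIP, from -0.37 to -0.031, with a median of -0.30. Atp5i, a small membrane subunit whose promoter is printed above, had 56.4, 35.1 and 36.6 CPM in HIP and 94.0, 39.1 and 40.1 CPM in WT, again with WT26 and HIP30 above the rest.

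Atp5s, which carries an ATP synthase name and is known from bovine mitochondria as coupling factor B, had the highest difference of the 80 genes. It had 28.5, 20.5 and 10.8 CPM in HIP and 6.80, 7.49 and 12.95 CPM in WT, so that HIP30 and HIP2 lay above every WT library and HIP3 lay below WT4. The mean was 19.9 ± 8.88 CPM in HIP and 9.08 ± 3.37 CPM in WT (SD, n = 3 each). The difference of 1.07 ± 0.44 (SE) had an unadjusted p of 0.042 and an adjusted p of 0.691 by limma. Its relative Atp5sl, now named as an assembly factor of complex I, had 54.6, 34.7 and 37.5 CPM in HIP and 47.3, 32.1 and 44.4 CPM in WT, a difference of 0.026 ± 0.26 (SE).

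**Figure D3:**
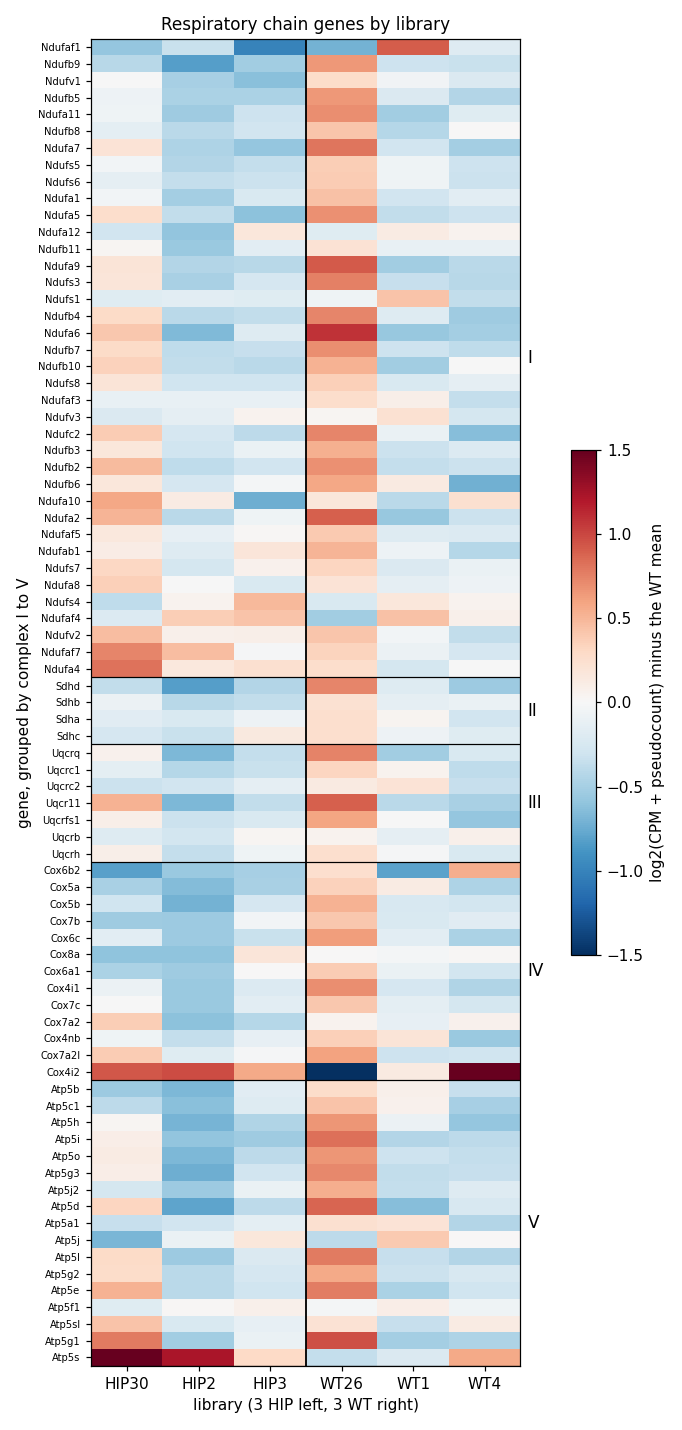
Log2 level minus the mean of the 3 WT libraries for the tested genes but 1 (rows, grouped by complex and ordered by their difference) in the 3 HIP libraries (left) and the 3 WT libraries (right), red above and blue below the WT mean, with colours capped at 1.5. WT26 is red in most rows and HIP2 blue in most rows, and HIP30 is redder than the other HIP libraries.

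The map of genes by library shows that the members varied together between libraries of the same group. Taken as the median of the 80 genes and set against the WT mean, the HIP libraries stood at 0.031, -0.41 and -0.22 and the WT libraries at 0.41, -0.17 and -0.29. WT26 was thus well above every other library, and HIP2 was the lowest. The summed level of the 84 genes was 7087, 5551 and 6722 CPM in HIP and 10114, 7212 and 6142 CPM in WT, with HIP30 and HIP3 between the values of WT1 and WT4 and HIP2 below all of WT.

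WT26 was the highest of the 6 libraries for 59 of the 80 genes (73.8%), against 22.9% of all tested genes. HIP30 was the highest HIP library for 57 genes (71.2%), against 39% of all tested genes, and HIP2 was the lowest HIP library for 57 (71.2%), against 23.1%. Both WT26 and HIP30 lay above each of the other 4 libraries for 44 genes (55%), against 14.5% of all tested genes. These 2 libraries are also the pair in which Ins1 was at 0, and the pair whose titles carry numbers outside 1 to 4.

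**Figure D4:**
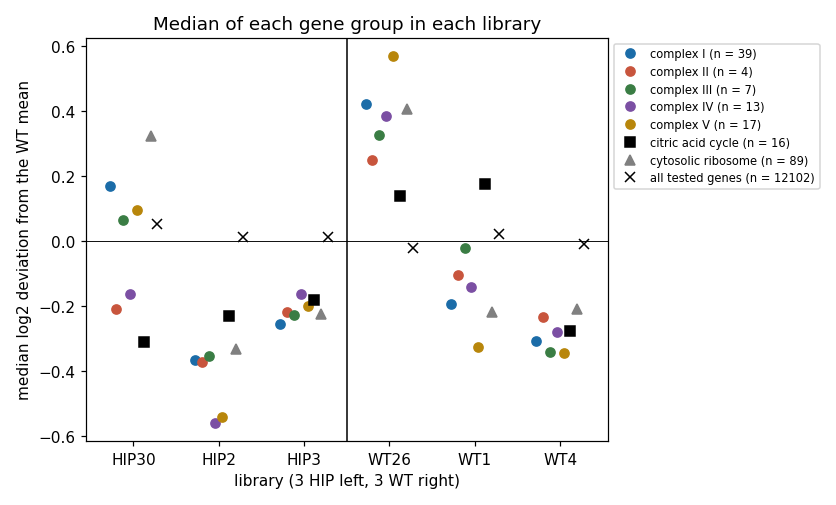
Median log2 deviation from the WT mean in each library (3 HIP left, 3 WT right) for the genes of each complex, for the citric acid cycle, for cytosolic ribosomal proteins and for all tested genes. All 5 complexes are highest in WT26, the ribosomal proteins are high in WT26 and HIP30, and the citric acid cycle genes are low in HIP30.

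The plot of medians by library shows that the medians of the 5 complexes had the same sign within each library but HIP30. There the median was 0.17 for complex I, 0.067 for complex III and 0.096 for complex V, and it was -0.21 for complex II and -0.16 for complex IV. In HIP2 the medians ran from -0.56 in complex IV to -0.35 in complex III, and in WT26 from 0.25 in complex II to 0.57 in complex V. All tested genes together stayed between -0.021 and 0.051 in every library.

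**Figure D5:**
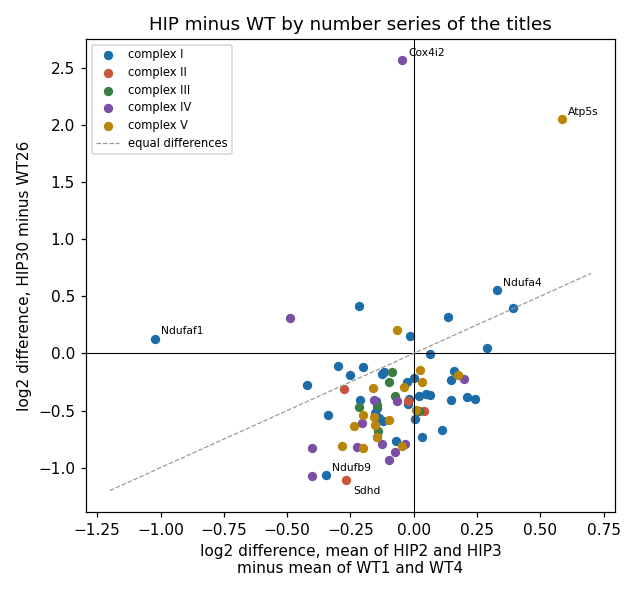
Log2 difference of each tested gene between HIP30 and WT26 (vertical axis) against that between the means of HIP2 with HIP3 and of WT1 with WT4 (horizontal axis), coloured by complex, with a dashed line of equal differences. Most points lie below 0 on the vertical axis and gather near 0 on the horizontal axis, with Atp5s and Cox4i2 high above the rest.

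Since titles number 1 HIP and 1 WT library outside the range 1 to 4, the difference was also taken within each number series, which the labels do not describe as a batch. Between HIP30 and WT26 the median difference of the members was -0.41, with 69 of 80 genes (86.2%) lower in HIP30, against 49% of all tested genes. Between HIP2 with HIP3 and WT1 with WT4 it was -0.091, with 55 of 80 genes (68.8%) lower in HIP, against 50.2% of all tested genes. The direction was therefore the same in both series, and its size in the second was less than the distance between HIP2 and HIP3. In the plot of both differences, Sdhd stood at -1.11 in the first series and -0.27 in the second, and Ndufb9 at -1.07 and -0.35. Atp5s, which ran against the other members, stood at 2.05 and 0.59. Some genes turned sign, such as Ndufa6 at -0.67 and 0.11, Ndufab1 at -0.40 and 0.24 and Cox7a2l at -0.23 and 0.20. In complex I, 22 of 39 genes were lower in HIP in the second series, with a median of -0.023. Cox4i2 stood at 2.56 in the first and -0.047 in the second.

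The direction of the members rested to a large extent on WT26. Without that library the median difference was 0.0098 and 39 of 80 genes were lower in HIP, and without HIP2 it was -0.081 with 56 lower. Without HIP30 or without WT4 it was -0.34 and -0.37, with 71 and 70 genes lower. With the other scalings, filters and pseudocounts tried on the 6 libraries, the median lay between -0.22 and -0.12 and between 60 and 67 genes were lower.

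Other genes of the mitochondrion gave a setting for these values, and none of their genes passed the adjusted threshold with limma. All 16 tested genes of the citric acid cycle and the pyruvate dehydrogenase, which supply the chain with NADH and succinate, were lower in HIP, with a median of -0.22. Fh, the fumarase, averaged 74.0 ± 15.4 CPM in HIP and 106 ± 24.5 CPM in WT (SD, n = 3 each), a difference of -0.51 ± 0.24 (SE). Dlst, a subunit of the 2-oxoglutarate dehydrogenase, averaged 81.2 ± 8.43 CPM in HIP and 105 ± 13.9 CPM in WT, a difference of -0.37 ± 0.18 (SE). Their pattern over libraries was not that of the respiratory chain, with medians of -0.31, -0.23 and -0.18 in HIP and 0.14, 0.18 and -0.28 in WT, so that HIP30 was low and WT1 high. Without WT1, 12 of the 16 genes were lower in HIP.

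Of 14 genes of the outer membrane and of carriers, 12 were lower in HIP, with a median of -0.27. Slc25a5, an ADP/ATP carrier, averaged 113 ± 21.7 CPM in HIP and 174 ± 56.1 CPM in WT, and Tomm22, a receptor for imported proteins, 103 ± 13.3 CPM in HIP and 140.0 ± 35.2 CPM in WT (SD, n = 3 each). A list of inhibitors and uncouplers also held Higd1a, Higd2a and the member Cox7a2l, which are neither. Of its 6 tested genes, 5 were lower, with a median of -0.37, and Cox7a2l was higher. The uncoupling protein Ucp2 averaged 631 ± 203 CPM in HIP and 861 ± 76.7 CPM in WT, and Ucp3 averaged 0.712 ± 0.187 CPM in HIP and 3.71 ± 2.53 CPM in WT, with WT4 at the HIP level. Of 19 genes of electron carriers and ubiquinone synthesis, 12 were lower and 7 higher, with a median of -0.11 (0.035 without WT26). They include Cyc1, the cytochrome c1 gene of complex III, which the name rule does not catch, at -0.34 ± 0.21 (SE). Etfa, which feeds electrons from fatty acid oxidation to ubiquinone, had 123, 109.9 and 119.8 CPM in HIP and 233, 167 and 129.6 CPM in WT, and Dhodh, the pyrimidine synthesis enzyme that also reduces ubiquinone, had 19.7, 15.3 and 13.8 CPM in HIP and 10.9, 5.22 and 11.2 CPM in WT. Neither gene overlapped between groups, with Etfa lower and Dhodh higher in HIP. Of all tested genes, 4.27% were lower and 5.27% higher without overlap. Genes named here and below had the lowest unadjusted p of their lists, a choice that favours a lack of overlap.

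The assembly factors and the regulators of biogenesis were more often higher than lower in HIP, where 48.9% of all tested genes were lower. Of 35 assembly factors of the complexes, which include the 5 members named above, 14 were lower and 21 higher in HIP, with a median of 0.12 (-0.0053 without WT4). Cox17, which carries copper to complex IV, averaged 26.1 ± 5.97 CPM in HIP and 18.5 ± 2.38 CPM in WT, and Ttc19, a complex III factor, 53.3 ± 5.84 CPM in HIP and 43.0 ± 7.09 CPM in WT (SD, n = 3 each). Of 18 regulators of biogenesis and mitochondrial transcription, 3 were lower and 15 higher, with a median of 0.14. Within the number series this was weaker: 7 of the 18 were lower in HIP30 than in WT26. In HIP2 with HIP3 against WT1 with WT4, 7 were lower as well. Nrf1, whose product binds the NRF1 letters, had 32.3, 31.6 and 41.4 CPM in HIP and 17.4, 24.8 and 30.03 CPM in WT, a difference of 0.57 ± 0.27 (SE), with every HIP library above every WT library. Polg, the polymerase of mitochondrial DNA, had 27.7, 39.2 and 38.2 CPM in HIP and 55.6, 46.3 and 48.2 CPM in WT, a difference of -0.52 ± 0.22 (SE), with every HIP library below every WT library.

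Of 10 genes of mitophagy, fission and fusion, 3 were lower and 7 higher in HIP, with a median of 0.13. Park2, the ubiquitin ligase parkin, had 21.8, 11.2 and 5.02 CPM in HIP and 4.89, 3.501 and 4.56 CPM in WT, while Bnip3, a mitophagy receptor, had 19.5, 13.4 and 6.80 CPM in HIP and 10.3, 7.37 and 10.2 CPM in WT. Park2 was above WT in every HIP library, by little in HIP3, and Bnip3 overlapped. Differences between these lists were not tested.

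Proteins of both kinds of ribosome were also more often lower than higher in HIP, where 48.9% of all tested genes were lower. Of 67 mitochondrial ribosomal proteins 44 (65.7%) were lower in HIP, with a median of -0.067. Of 89 cytosolic ribosomal proteins 64 (71.9%) were lower, with a median of -0.10. Without WT26 these medians were 0.068 and 0.17, without HIP2 they were 0.011 and 0.045, and with scaling by library totals the first was 0.0061. Mrpl41 averaged 27.0 ± 3.65 CPM in HIP and 37.7 ± 8.40 CPM in WT, and Mrpl43 14.2 ± 1.65 CPM in HIP and 21.3 ± 7.15 CPM in WT (SD, n = 3 each). Among cytosolic proteins Rpl30 averaged 37.98 ± 11.8 CPM in HIP and 20.0 ± 7.84 CPM in WT, and Rpl22l1 60.4 ± 2.08 CPM in HIP and 83.1 ± 13.3 CPM in WT. Of the 89 cytosolic ribosomal proteins, 57 had WT26 and HIP30 above each of the other 4 libraries, as had 44 of the 80 respiratory chain genes and 1 of the 16 citric acid cycle genes.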

How the data were processed

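Expression was measured in 6 libraries made from laser-captured glands, with kits meant for very small amounts of RNA, per the labels' protocols. The submitters' processing notes name STAR, HTSeq, limma and edgeR, with no version, and the genome build rn5. The authors deposited 1 table per library with a log2 value for each of 15679 symbols. These deposited log2 values were CPM with a prior, and taking the prior off gave whole reads for 100% of entries within 0.1 reads. The 4 rows of March1 and March2, whose symbols repeat, were left out. Depth was 15141136 to 17574682 reads, so 1 read was worth 0.0569 to 0.066 CPM. Coordinates and promoters come from RefSeq on GRCr8, which is not the build of the counts.

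Groups follow the titles. TMM factors (0.933 to 1.09, trims of 30% and 5%) were computed from the reads, and limma 3.58.1 in R 4.3.3 was run with an intensity trend and no covariate on log2 of CPM plus 0.121, which is 2 reads of an average library, so that differences of low genes are understated. Genes with 0.61 CPM (10 reads at the median library) in 3 libraries and 15 reads in total were tested, with Benjamini-Hochberg adjustment over all 12102 and a threshold of 0.05. A group of genes is described by its counts and median without a test. The steps were tested on simulated data with planted changes much larger than the differences of most members. That test does not cover shifts as small as theirs. The members, the other gene lists and the tests were chosen with earlier results of these data known.

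Genes are named with values in each library where they had the 3 lowest unadjusted p of a complex and direction, are core or catalytic subunits, belong to an isoform pair or to the c ring, or were not tested; the values of 1 such gene are not reported here, though it stands in the counts and medians. Atp5i, Ndufa6 and Ndufaf1 were added after their values were seen, the first 2 for their promoters. The other lists give the 2 genes with the lowest unadjusted p. Alternatives covered scaling, filters, pseudocounts, limma-voom, the number series of the titles and leaving out each library. Transcript lengths were not used, so levels of different genes are not compared. Figures were drawn with matplotlib 3.10.9.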

Additional observations from a re-analysis of the deposited data

How the results depend on the processing

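No setting called a gene after adjustment, and of 36 named and tested genes 24 kept their sign in all 16 planned settings. Without 1 library at a time, the median difference of the members ran from -0.37 to 0.0098 and the number lower in HIP from 39 to 71. It ran from -0.33 to 0.10 in complex I, from -0.42 to 0.014 in complex III and from -0.40 to 0.049 in complex V, the highest value each time without WT26. Complex II and complex IV stayed negative without any library (without WT26, -0.10 and -0.14). The difference in the log2 ratio of Cox4i2 over Cox4i1 ran from -0.059 without WT26 to 2.08 without WT4. Under the same settings Atp5g1 ran from -0.31 to 0.54, Atp5g2 from -0.32 to 0.16, Atp5g3 from -0.51 to 0.049, Atp5sl from -0.17 to 0.15, Cox4i1 from -0.51 to 0.064, Cox7a2l from -0.10 to 0.36, Ndufs1 from -0.36 to 0.035, Ndufs3 from -0.39 to 0.19, Ndufs7 from -0.090 to 0.20, Ndufs8 from -0.29 to 0.047, Uqcrfs1 from -0.45 to 0.14 and Uqcrq from -0.59 to 0.052. In the libraries numbered 1 to 4 alone, an alternative chosen after seeing the data, the differences were -0.061 for Atp5sl, -0.044 for Cox4i2, 0.0074 for Ndufs3, 0.042 for Sdhc and 0.025 for Uqcrfs1. The cause of these turns was not tested beyond the libraries left out. No paired analysis was possible because the numbers in the titles differ between the groups. With 3 libraries a group, differences of the size seen in the members were within the standard error of most of them.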
